A study of Mus musculus with 4 samples.

Results

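Calcium absorption and the vitamin D response were followed through 6 genes, S100g, Trpv6, Atp2b1, Vdr, Casr and Slc8a1. They were chosen by name from the pathway, with earlier results of these data known. The array annotation gave them 13 probe sets with a single gene symbol, of 45101 probe sets and 18194 genes on the array. The RNA came from colon mucosal scrapings of 129S6/SvEv mice, aged 5 weeks and kept on standard chow. The groups were VhlΔIE/Apcmin/+, which lacked Vhl in the intestine and carried the Min mutation of Apc, VhlΔIE, which lacked Vhl in the intestine alone, VhlF/F/Apcmin/+, which had floxed Vhl and the Min mutation, and VhlF/F, which had floxed Vhl alone. The design text names 5, 3, 3 and 4 mice in that order. Each genotype has 1 array, and whether the RNA of several mice was pooled is not given in the sources used here, nor is the promoter that drives Cre. All groups carry the floxed Vhl allele. The Vhl protein recruits hypoxia-inducible factors (HIF) to a ubiquitin ligase, so its loss stabilises them, and Apc restrains beta-catenin. The labels call the Apc mutants an intestinal tumor model, and what was sampled is labelled colon.

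Transcellular calcium absorption runs in steps. Calcium enters the enterocyte through the apical channel TRPV6, is carried across the cytosol by calbindin-D9k, the product of S100g, and leaves at the basolateral side through the calcium ATPase PMCA1, the product of Atp2b1, and in some epithelia through the sodium-calcium exchanger NCX1, the product of Slc8a1. The vitamin D receptor, encoded by Vdr, binds DNA with a retinoid X receptor when it holds 1,25-dihydroxyvitamin D, and in the intestine S100g, Trpv6 and Cyp24a1 are its textbook targets. Casr encodes the calcium-sensing receptor, which reads extracellular calcium. The duodenum is the best known site of this route, and the caecum and colon use it as well.

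To show what letters lie before the 4 members that reached the brightness floor in every array, RefSeq windows of 300 bases were taken from GRCm38.p6, from 250 bases before to 50 bases after the annotated start. All 6 members had a window there. The letters searched on both strands were AGGTCA, the half-site of nuclear receptors such as the vitamin D receptor, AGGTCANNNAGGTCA, a pair of half-sites 3 bases apart as the receptor dimer prefers, ACGTG or GCGTG, the core of HIF sites, and TATAAA, the TATA box. Matches are in capitals.
S100g, chrX:162964550-162964849, minus strand: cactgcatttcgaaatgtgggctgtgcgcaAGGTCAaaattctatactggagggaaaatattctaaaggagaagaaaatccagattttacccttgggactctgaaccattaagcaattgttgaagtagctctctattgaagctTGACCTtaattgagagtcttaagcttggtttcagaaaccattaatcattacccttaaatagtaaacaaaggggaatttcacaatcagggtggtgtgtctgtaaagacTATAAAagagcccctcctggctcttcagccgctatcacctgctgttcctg
Trpv6, chr6:41636356-41636655, minus strand: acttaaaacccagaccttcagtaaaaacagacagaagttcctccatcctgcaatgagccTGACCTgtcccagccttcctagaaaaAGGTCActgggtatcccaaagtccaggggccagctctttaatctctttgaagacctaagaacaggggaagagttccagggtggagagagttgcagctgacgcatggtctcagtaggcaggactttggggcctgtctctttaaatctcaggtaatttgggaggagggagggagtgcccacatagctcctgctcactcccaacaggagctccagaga
Atp2b1, chr10:98914392-98914691, plus strand: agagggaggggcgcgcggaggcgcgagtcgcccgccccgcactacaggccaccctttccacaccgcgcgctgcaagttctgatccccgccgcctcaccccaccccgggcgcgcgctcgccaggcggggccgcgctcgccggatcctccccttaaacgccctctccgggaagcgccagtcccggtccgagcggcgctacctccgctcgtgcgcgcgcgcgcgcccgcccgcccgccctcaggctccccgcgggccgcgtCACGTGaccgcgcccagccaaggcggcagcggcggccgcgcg
Vdr, chr15:97908247-97908546, minus strand: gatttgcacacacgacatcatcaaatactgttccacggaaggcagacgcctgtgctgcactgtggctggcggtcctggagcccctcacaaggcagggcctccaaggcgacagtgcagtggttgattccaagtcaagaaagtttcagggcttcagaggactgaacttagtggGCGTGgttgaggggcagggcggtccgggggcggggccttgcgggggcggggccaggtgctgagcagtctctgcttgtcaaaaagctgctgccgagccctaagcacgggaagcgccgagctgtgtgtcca

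The S100g window held 2 half-sites, which began 220 and 107 bases before the annotated start, and a TATA box that began at base 1 of the transcript. Its GC content was 41.0%, against a median of 52.7% over all 32817 windows. The Trpv6 window also held 2 half-sites, beginning 191 and 165 bases before the start, at a GC content of 51.3%. HIF core letters were found in neither window. The Atp2b1 window, at 79.3% GC, held the core on both strands in 1 overlapping palindrome, CACGTG, from base 9, and the Vdr window, at 61.3% GC, held 1 core beginning 79 bases before the start. A second annotated Atp2b1 start had 1 core from base 4. The Slc8a1 window, not printed, held 1 HIF core beginning 243 bases before the start, and the Casr window held none of the letters searched. Of all windows, 16.3% held a half-site, 43.8% a HIF core and 13.6% a TATA box. The paired half-sites were in 2 windows of 32817 and in no window of a member. A match is a run of letters and does not show that a factor bound there.

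Values below are deposited log2 values, made with RMA, a method that corrects background, brings arrays to a common distribution and reduces each probe set to a single value. A difference of 1 on this scale is a 2-fold difference, and the array first named is the one from which the other is subtracted. The floor for comparing a gene was a log2 value of 6 in any of the 4 arrays, which 11871 genes passed, and the probe set with the highest mean stood for a gene. With 1 array per genotype no single difference has a replicate check, so 2-fold was the rule of size. An additive limma fit over the 4 arrays, which takes the 2 arrays of a Vhl or Apc status as its replicates and leaves 1 residual degree of freedom, is given beside it. Its p-values rest on arrays that differ in the other gene and on the effects adding up, and with 4 arrays they are a weak check. In scraped mucosa, fewer cells of a type and less RNA per cell cannot be told apart.

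The level of Vhl matched the labels, and the arrays also differed in sample makeup. Vhl read 6.56 and 7.03 in the VhlΔIE/Apcmin/+ and VhlΔIE arrays, against 8.17 and 8.40 in the VhlF/F/Apcmin/+ and VhlF/F arrays. All 9 absorptive colonocyte markers were above the floor, among them Car1, a carbonic anhydrase of the colon surface, at 13.41 to 13.79. Xist, which marks female tissue, read 6.25 and 5.58 in the Vhl-deleted arrays, against 11.83 and 11.37 in the floxed arrays. Y-linked genes did not follow Vhl status. Eif2s3y read 8.80 and 8.78 in the deleted arrays, against 7.27 and 8.58 in the VhlF/F/Apcmin/+ and VhlF/F arrays, and Kdm5d and Uty were likewise lowest in the VhlF/F/Apcmin/+ array. The part of sex makeup in the member differences was not tested. Hepatocyte markers, 8 of 8 above the floor, had a summed linear signal of 2365 and 2420 in the VhlΔIE/Apcmin/+ and VhlΔIE arrays, against 4027 and 8003 in the VhlF/F/Apcmin/+ and VhlF/F arrays. Ttr, at 10.99 and 11.01 in the deleted arrays, against 11.89 and 11.66 in the floxed arrays, was the brightest of them. It therefore weighed most in the sum. Of the 8, 7 were at least 2-fold lower in the VhlΔIE array than in the VhlF/F array. With the Apc mutation 0 were, and for Vhl deletion 5 were above 0 and 3 below, with a median of 0.15. Apoh, Fgb, Ahsg, Tdo2 and Bhmt passed the floor through the VhlF/F array alone. The count against that array is therefore partly set by the filter. For these genes the Vhl differences with the Apc mutation lie between values under the floor. Alb read 7.08 and 7.24 in the deleted arrays, against 6.10 and 11.53 in the VhlF/F/Apcmin/+ and VhlF/F arrays. Fibroblast markers, 6 of 6 above the floor, summed to 17264 and 18308 in the deleted arrays, against 18993 and 15197 in the floxed arrays.

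Trpv6 was higher in both arrays with deleted Vhl. Its single probe set, 1419615_at, read 9.21 in the VhlΔIE/Apcmin/+ array and 9.18 in the VhlΔIE array, against 7.72 in the VhlF/F/Apcmin/+ array and 7.18 in the VhlF/F array. Both deleted arrays lay above both floxed arrays. The share of all genes that parted this way was not counted, so the parting does not set Trpv6 apart. The difference was 1.49, or 2.82-fold, with the Apc mutation and 2.00, or 4.01-fold, without it. Between the VhlΔIE/Apcmin/+ and VhlF/F arrays it was 2.03. In the additive limma fit it averaged 9.19 in the deleted arrays and 7.45 in the floxed arrays, a difference of 1.75 with a standard error of 0.16 and an adjusted p of 0.0426, which was 0.0686 with no floor on low genes. In that fit 3.64% of all genes were higher and 2.27% lower at an adjusted p under 0.05, and for the Apc mutation 0.00% were higher and 0.00% lower, with 445 and 665 genes at an unadjusted p under 0.05. Ordered from the highest, Trpv6 stood at place 152 of 11871 genes with the Apc mutation and at place 62 without it. It was the 1 member at least 2-fold higher in each Vhl comparison, where 2.82% of all genes were at least 2-fold higher with the Apc mutation and 2.27% without it. In both backgrounds together, 1.58% of genes were. The Apc mutation went with a difference of 0.03 with deleted Vhl and of 0.54, or 1.46-fold, with floxed Vhl.

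The sample makeup beside Trpv6 was as follows. Small intestinal enterocyte markers, 9 of 12 above the floor, summed to 4824 and 4926 in the Vhl-deleted arrays with and without the Apc mutation, against 6083 and 6841 in the matching floxed arrays. The list did not move as one: with the Apc mutation 2 of the 9 were at least 2-fold higher, Apoa1 by 1.60 and Alpi by 1.49, and 1 was lower, while without it 0 were higher and 3 lower. The medians were -0.13 and -0.52. Mep1a and Slc5a1 were the brightest of the list and weighed most in its sums. Fabp1, Apoa1 and Apoc3 were highest in the VhlF/F array, where the hepatocyte markers were also high, and the part of liver RNA was not tested. Macrophage markers, 6 of 6 above the floor, summed to 5389 and 6063 in the deleted arrays, against 4621 and 4115 in the floxed arrays, and the part of either cell type in the Trpv6 difference was not tested. For Vhl deletion, transcripts of proteins known to move or hold the TRPV6 channel showed smaller differences than Trpv6. Of 11 such genes, 8 were measured, all above the floor, and 0 were at least 2-fold apart in any comparison. Over the whole array, the shares past 2-fold for Vhl deletion were 2.82% upward and 1.52% downward with the Apc mutation. Without it they were 2.27% and 1.60%. At such shares, 8 genes are too few for a count of 0 to set them apart. Anxa2, which carries the channel to the membrane with S100a10, differed by 0.46 with and 0.52 without the Apc mutation, and S100a10 by 0.21 and 0.31. Bspry, an inhibitor of the related TRPV5 channel, differed by -0.40 and -0.38. The medians of the 8 genes were 0.09 and 0.15, against -0.02 and -0.02 over all genes. Trpv5 itself and the calmodulin genes had no probe set with a single symbol in the annotation used here.

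**Figure D1:**
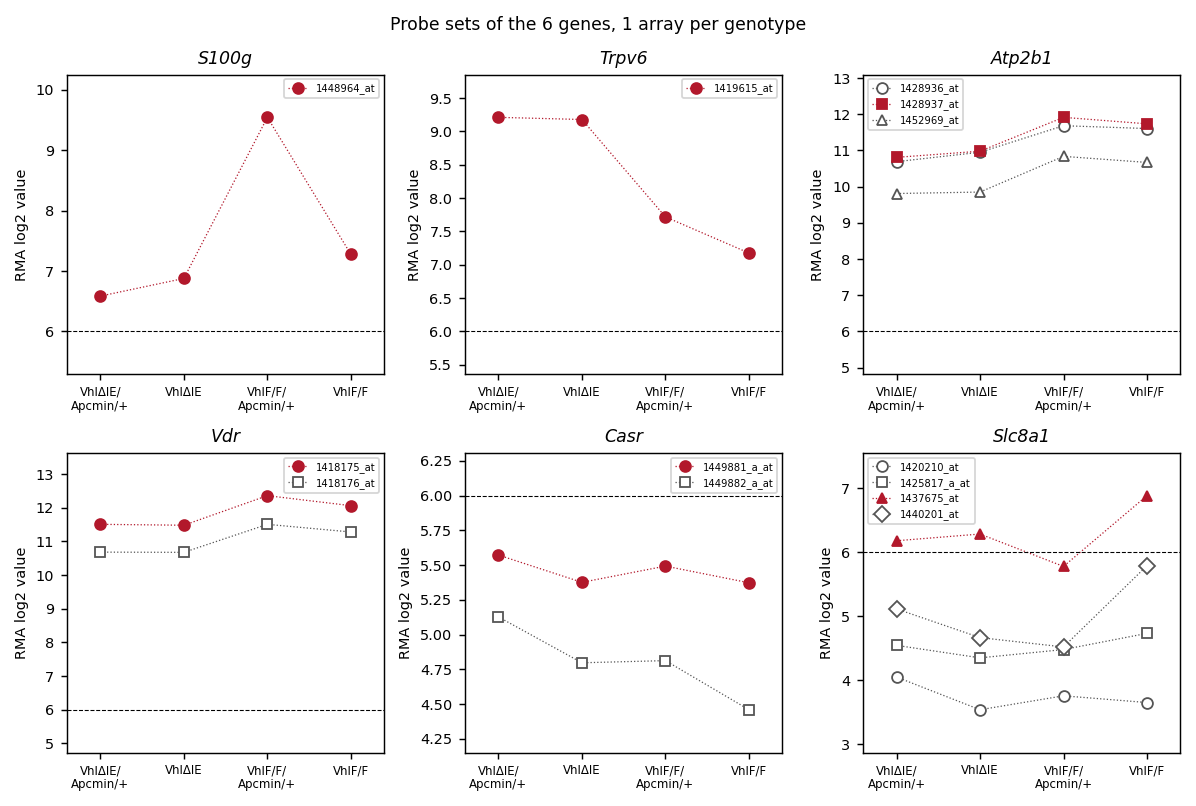
RMA log2 values (vertical axes, each with its own range) of the 13 probe sets of the 6 genes in the 4 arrays (horizontal axes), with 1 point per array, the probe set that stands for the gene in red and the floor of 6 dashed. Trpv6 lies higher and Atp2b1 and Vdr lie lower in both Vhl-deleted arrays, S100g stands out in the VhlF/F/Apcmin/+ array alone, and Casr lies below the floor.

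S100g was set apart by the VhlF/F/Apcmin/+ array. Its single probe set, 1448964_at, read 6.58 in the VhlΔIE/Apcmin/+ array and 6.88 in the VhlΔIE array, against 9.54 in the VhlF/F/Apcmin/+ array and 7.28 in the VhlF/F array. The other 3 arrays thus lay within 0.69 of each other. The additive limma fit gave a Vhl difference of -1.68 with a standard error of 0.72 and an adjusted p of 0.227, in a gene whose Vhl difference changed with the background. With the Apc mutation Vhl deletion gave a difference of -2.96, or 7.77-fold lower, the 4th lowest of 11871 genes. Without the mutation the difference was -0.40, or 1.32-fold. The Apc mutation gave -0.29 with deleted Vhl and 2.27, or 4.81-fold, with floxed Vhl, the 3rd highest of all genes, and both large differences rest on the same array. With the VhlF/F array as the control in its place, the VhlΔIE/Apcmin/+ array differed by -0.69. The Vhl difference with the Apc mutation minus that without it was -2.56, and 0.295% of genes had a value of -1 or below on this measure.

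Other transcripts singled out the same array. Posterior Hox genes, which mark position along the hindgut, were 8 of 9 above the floor and summed to 5276 and 5934 in the VhlΔIE/Apcmin/+ and VhlΔIE arrays, against 9948 and 6469 in the VhlF/F/Apcmin/+ and VhlF/F arrays. Hoxd10, at 9.13 in the VhlF/F/Apcmin/+ array, read 5.38 to 6.77 in the others. Not all of the list did so: for the Apc mutation with floxed Vhl 5 of the 8 were above and 3 below 0, with Hoxa10 at -0.40, Hoxa11 at -0.55 and Hoxa13 at -0.02. The Y-linked genes were lowest in that array, and S100g lies on the X chromosome. The stretch of colon sampled and the sex of the mice were not tested as a source of the S100g value. With clone, predicted-gene and accession-like symbols left out, 3 genes were taken whose pattern over the 4 arrays lay nearest to that of S100g. They were Scnn1g, Wnt8b and Hoxd13, at Euclidean distances of 0.21, 0.59 and 0.68 between values centred on each gene's mean. Scnn1g, a subunit of the epithelial sodium channel of the distal colon, read 6.51 and 6.53 in the deleted arrays, against 9.33 and 6.97 in the floxed arrays.

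Atp2b1, the basolateral calcium pump, was lower in both arrays with deleted Vhl. Probe set 1428937_at read 10.81 and 10.98 in the VhlΔIE/Apcmin/+ and VhlΔIE arrays, against 11.91 and 11.74 in the VhlF/F/Apcmin/+ and VhlF/F arrays. Its values in the deleted arrays did not overlap those in the floxed arrays. This pattern was not counted over all genes, so it does not set Atp2b1 apart. The difference was -1.11, or 2.15-fold, with the Apc mutation and -0.76, or 1.69-fold, without it. All 3 probe sets were lower in both comparisons, by -1.11 to -0.99 with the mutation and by -0.82 to -0.66 without it. These probe sets come from the same arrays and are not replicates. The additive limma fit gave -0.93 with a standard error of 0.12 and an adjusted p of 0.0529, and averaging probe sets gave an adjusted p of 0.0294, against 0.0823 with no floor. With S100g, Atp2b1 made 2 members at least 2-fold lower with the Apc mutation, where 1.52% of all genes were. Without the mutation 0 members were at least 2-fold lower, against 1.60% of all genes. At 1.5-fold Atp2b1 was lower in both backgrounds, as were 2.73% of genes. The Apc mutation gave differences of -0.17 with deleted and 0.18 with floxed Vhl.

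Vdr, the receptor, differed in the same direction by less. Probe set 1418175_at read 11.51 and 11.48 in the VhlΔIE/Apcmin/+ and VhlΔIE arrays, against 12.36 and 12.06 in the VhlF/F/Apcmin/+ and VhlF/F arrays. The second probe set, 1418176_at, read 10.68 and 10.67 in the deleted arrays, against 11.51 and 11.28 in the floxed arrays. In both probe sets each deleted array lay below each floxed array. Again there was no count over all genes, so this does not set Vdr apart. The differences of the first were -0.85, or 1.80-fold, with the Apc mutation and -0.58 without it, and those of the second -0.83 and -0.60. None reached 2-fold. In the additive limma fit the difference was -0.72 with a standard error of 0.10 and an adjusted p of 0.0593, and the adjusted p ranged up to 0.0927 with no floor and down to 0.0342 with the mean over probe sets. For the Apc mutation the log2 differences of the first and second probe sets were 0.03 and 0.01 with deleted Vhl. With floxed Vhl these differences were 0.30 and 0.23.

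Markers of absorptive colonocytes, among the cells in which Vdr and Atp2b1 are known to act, were mostly lower in the same arrays. With the Apc mutation 7 of 9 were lower and without it 8 of 9, and the share of all genes below 0 was not counted. The medians were -0.24 with the mutation and -0.33 without it, against -0.02 and -0.02 over all genes. The 9 markers summed to 72982 and 68686 in the VhlΔIE/Apcmin/+ and VhlΔIE arrays, against 88317 and 94627 in the VhlF/F/Apcmin/+ and VhlF/F arrays. Slc26a3, the apical chloride exchanger, differed by -0.76 with and -0.69 without the Apc mutation, and Car4, a membrane carbonic anhydrase, by -0.72 and -0.63, while Krt20 differed by 0.39 and 0.09. Smooth muscle markers, 10 of 10 above the floor, summed to 23615 and 24935 in the deleted arrays, against 31669 and 34934 in the floxed arrays. The part of either cell type in the Vdr and Atp2b1 differences was not tested. The genes nearest to Atp2b1 in pattern over the 4 arrays were Cox7a1, Mettl27 and Add3, at distances of 0.02, 0.05 and 0.05. Those nearest to Trpv6 were Gdpd2, Gchfr and Itgam, at 0.25 each, of which Itgam is an integrin of myeloid cells. Itgam read 5.97 and 6.28 in the VhlΔIE/Apcmin/+ and VhlΔIE arrays, against 4.72 and 4.10 in the VhlF/F/Apcmin/+ and VhlF/F arrays. It thus passed the floor in the VhlΔIE array alone.

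**Figure D2:**
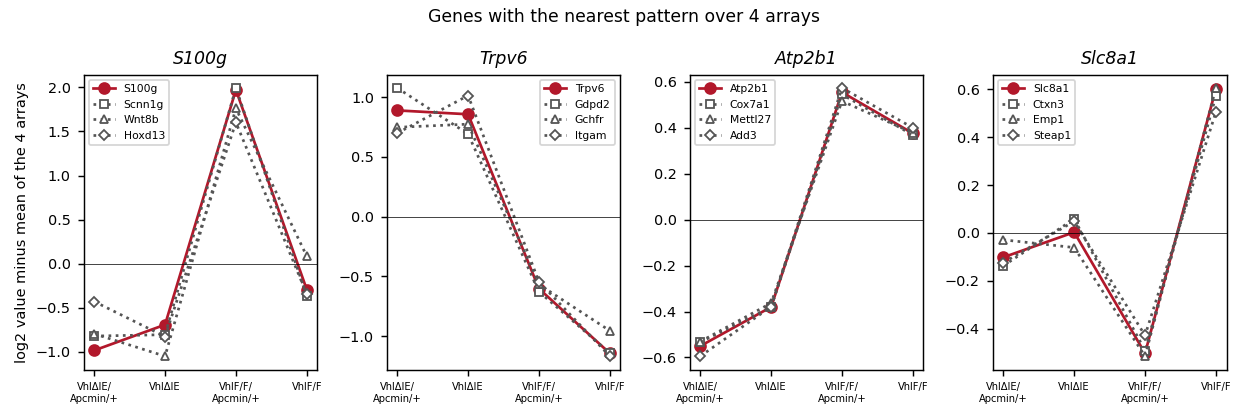
Log2 values minus the mean of the 4 arrays (vertical axes) for the 4 members with a range of at least 1 (red) and, in grey, the 3 genes with the smallest Euclidean distance to each, by array (horizontal axes). Clone, predicted-gene and accession-like symbols were left out of the search. S100g peaks in the VhlF/F/Apcmin/+ array together with Scnn1g, Wnt8b and Hoxd13, while Trpv6 and Atp2b1 divide by Vhl status in opposite directions.

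Slc8a1, the sodium-calcium exchanger, was dim. The additive limma fit gave a Vhl difference of -0.10 with an adjusted p of 0.838 and an Apc difference of -0.61 with an adjusted p of 0.583. Of its 4 probe sets only 1437675_at reached the floor. It read 6.18 and 6.28 in the VhlΔIE/Apcmin/+ and VhlΔIE arrays, against 5.78 and 6.88 in the VhlF/F/Apcmin/+ and VhlF/F arrays. The highest value was in the VhlF/F array and the lowest in the VhlF/F/Apcmin/+ array. Vhl deletion gave a difference of 0.40 with the Apc mutation and -0.60 without it, and the Apc mutation one of -0.10 with deleted Vhl and -1.11, or 2.15-fold lower, with floxed Vhl. The last was the 1 member at least 2-fold lower for the Apc mutation with floxed Vhl, where 0.901% of genes were, and S100g was the 1 member at least 2-fold higher, where 0.118% of genes were. It rests on a value under the floor in the VhlF/F/Apcmin/+ array, and with values under 6 raised to 6 it was -0.88. Probe set 1440201_at, below the floor in all arrays, differed by -1.27 in that comparison. Smooth muscle markers, whose cells are known to use this exchanger, had a median of -0.20 in that comparison and neuron and glia markers, 4 of 9 above the floor, one of -0.17. The neuron and glia list summed to 494 and 580 in the deleted arrays, against 574 and 621 in the floxed arrays. Ctxn3, Emp1 and Steap1 lay nearest to Slc8a1, at distances of 0.07, 0.10 and 0.13.

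Casr did not reach the floor in any array. Its brighter probe set, 1449881_a_at, read 5.57 and 5.38 in the VhlΔIE/Apcmin/+ and VhlΔIE arrays, against 5.49 and 5.37 in the VhlF/F/Apcmin/+ and VhlF/F arrays, and the other, 1449882_a_at, read 5.13 and 4.80 in the deleted arrays, against 4.81 and 4.46 in the floxed arrays. At this brightness a difference between the arrays was not detectable, and no fold is given. Enteroendocrine cells, one of the cell types known to use the receptor, had 5 of 5 markers above the floor, with a summed signal of 7623 and 7837 in the deleted arrays, against 6464 and 6791 in the floxed arrays. With deleted Vhl, the Apc mutation gave 0 members at least 2-fold apart, where 0.202% of genes were at least 2-fold higher and 0.118% lower. Between the VhlΔIE/Apcmin/+ and VhlF/F arrays Trpv6 was at least 2-fold higher, as were 2.26% of genes, and 0 members were at least 2-fold lower, against 1.68% of genes. The comparisons share arrays: each Vhl-deleted and floxed array enters a Vhl and an Apc comparison.

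**Figure D3:**
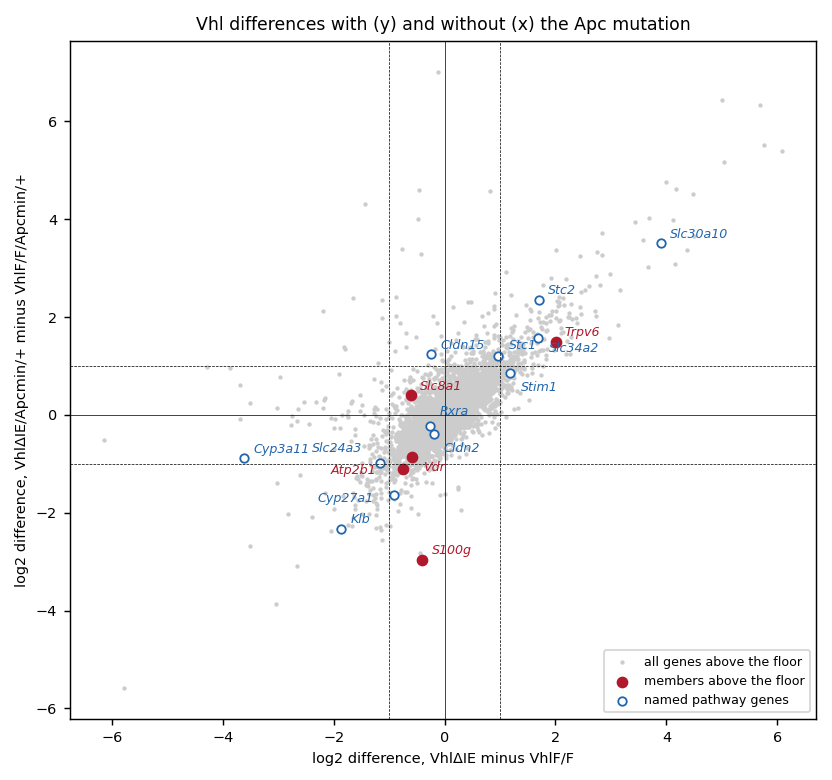
Log2 difference for Vhl deletion with the Apc mutation (vertical axis) against that without it (horizontal axis) for 11871 genes (grey), the 5 members above the floor (red) and named pathway genes (blue circles), with 2-fold dashed. Trpv6 lies past 2-fold on both axes, S100g at -2.96 on the vertical axis alone, and Atp2b1 and Vdr are negative on both.

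Genes of the wider pathway were read from 6 lists with 85 genes, of which 74 were measured and 51 reached the floor. The lists were chosen with earlier results of these data known, so their shares beside those of all genes are not a test. With the Apc mutation 5 of the 51 were at least 2-fold higher and 2 lower with Vhl deletion, and without it 4 and 3. The median differences were -0.06 and 0.00, against -0.02 and -0.02 over all genes. As shares, 9.80% and 7.84% of these genes were at least 2-fold higher, against 2.82% and 2.27% of all genes, and 3.92% and 5.88% lower, against 1.52% and 1.60%. For the Apc mutation 0 were higher with either Vhl status, and 2, or 3.92%, were lower with deleted Vhl, against 0.118% of all genes, and 2, or 3.92%, with floxed Vhl, against 0.901%.

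Vitamin D metabolism and its partners gave few differences of 2-fold, though most of these genes lay lower with Vhl deletion. Of 18 genes, 15 were measured and 9 were above the floor. For Vhl deletion 8 of the 9 were below 0 in each background. The share of all genes below 0 was not counted, so this count does not set the list apart. The medians of the 9 were -0.23 with and -0.19 without the Apc mutation, against -0.02 and -0.02 over all genes. Rxra, the dimer partner of the receptor, read 8.72 and 8.55 in the deleted arrays, against 8.95 and 8.81 in the floxed arrays. Its difference was -0.23 with and -0.26 without the Apc mutation. A second probe set differed by -0.25 and 0.05, so the probe sets disagree in sign without the mutation. Cyp27a1, a sterol hydroxylase that can also hydroxylate vitamin D, differed by -1.63 with the Apc mutation and by -0.92 without it. It was the 1 gene of the 9 at least 2-fold lower with the mutation, where 1.52% of all genes were. It read 8.11 and 8.24 in the deleted arrays, against 9.74 and 9.16 in the floxed arrays. Cyp27b1, which makes the active hormone, read 3.54 to 3.76 in all arrays, and Cyp24a1, which degrades it and is the best known target of the receptor, read 5.16 to 5.54. Both lay below the floor in every array, so neither gives a reading of the hormone here.

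Other vitamin D targets were 9 of 14 above the floor, with medians for Vhl deletion of -0.01 with and 0.04 without the Apc mutation. Slc30a10, a manganese exporter that responds to vitamin D in human intestinal cells, was the highest. It read 11.06 and 10.82 in the VhlΔIE/Apcmin/+ and VhlΔIE arrays, against 7.55 and 6.92 in the VhlF/F/Apcmin/+ and VhlF/F arrays. The differences were 3.50 and 3.91, and both of its probe sets were higher in both backgrounds. Slc34a2, an apical phosphate cotransporter, read 9.14 and 10.33 in the deleted arrays, against 7.56 and 8.64 in the floxed arrays, with Vhl differences of 1.58 and 1.69. It was also lower with the Apc mutation, by -1.19 with deleted and -1.08 with floxed Vhl. Cyp3a11, a drug-metabolising enzyme, read 4.67 and 6.03 in the deleted arrays, against 5.55 and 9.65 in the floxed arrays. Its high value fell in the VhlF/F array, where the hepatocyte markers were high. Cyp3a11 is also a hepatocyte gene with near-identical relatives, and the part of liver RNA was not tested. Cdkn1a, a cell cycle inhibitor, differed by 0.75 and 0.87, and Thbd, thrombomodulin of endothelium, by 0.59 and 0.88.

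Of 23 other channels, pumps, exchangers and calcium binders, 14 were above the floor. With the Apc mutation 0 of them were at least 2-fold apart for Vhl deletion, and without it 1 was higher and 1 lower, with medians for Vhl deletion of -0.04 with and 0.01 without the Apc mutation. Stim1, the sensor of endoplasmic reticulum calcium, read 10.84 and 10.79 in the deleted arrays, against 9.99 and 9.62 in the floxed arrays, and differed by 0.85 and 1.17. Slc24a3, a potassium-dependent sodium-calcium exchanger, read 8.02 and 7.94 in the deleted arrays, against 9.00 and 9.10 in the floxed arrays, and differed by -0.98 and -1.16. Orai1, the channel that STIM1 opens, differed by -0.08 and 0.03. Of the other plasma membrane pumps, Atp2b2, Atp2b3 and Atp2b4 lay below the floor, as did Calb1, the larger calbindin, at 3.35 to 3.63. The claudin pores for paracellular cations had 3 of 5 genes above the floor, with medians of -0.29 and -0.19. Cldn2, a pore for calcium and sodium, differed by -0.40 and -0.19, and its second probe set by -0.37 and 0.15, so the probe sets disagree in sign without the mutation. Cldn15, a sodium pore, read 10.14 and 9.49 in the deleted arrays, against 8.90 and 9.73 in the floxed arrays, and was at least 2-fold higher with the Apc mutation, at 1.25, with -0.24 without it.

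Hormones and receptors of calcium and phosphate balance were 10 of 17 above the floor, with medians for Vhl deletion of -0.05 with and 0.04 without the Apc mutation. Stc2, a stanniocalcin, read 10.30 and 10.01 in the VhlΔIE/Apcmin/+ and VhlΔIE arrays, against 7.94 and 8.31 in the VhlF/F/Apcmin/+ and VhlF/F arrays, and differed by 2.36 and 1.70. All 3 of its probe sets were higher in both backgrounds. Stc1, named for the calcium-lowering hormone of fish, read 6.78 and 6.38 in the deleted arrays, against 5.59 and 5.42 in the floxed arrays, and differed by 1.20 and 0.96. The floxed values lay under the floor. Klb, beta-klotho, the co-receptor of the hormones FGF15 and FGF21, was lower in both backgrounds. It read 6.55 and 6.64 in the deleted arrays, against 8.88 and 8.50 in the floxed arrays, and differed by -2.33 and -1.86. The calcium-sensing receptor's G proteins Gnaq and Gna11 differed by -0.04 and 0.05 and by -0.20 and -0.13. Kl, Pth1r and Calcr lay below the floor, and Pthlh had no probe set with a single symbol in the annotation used here.

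**Figure D4:**
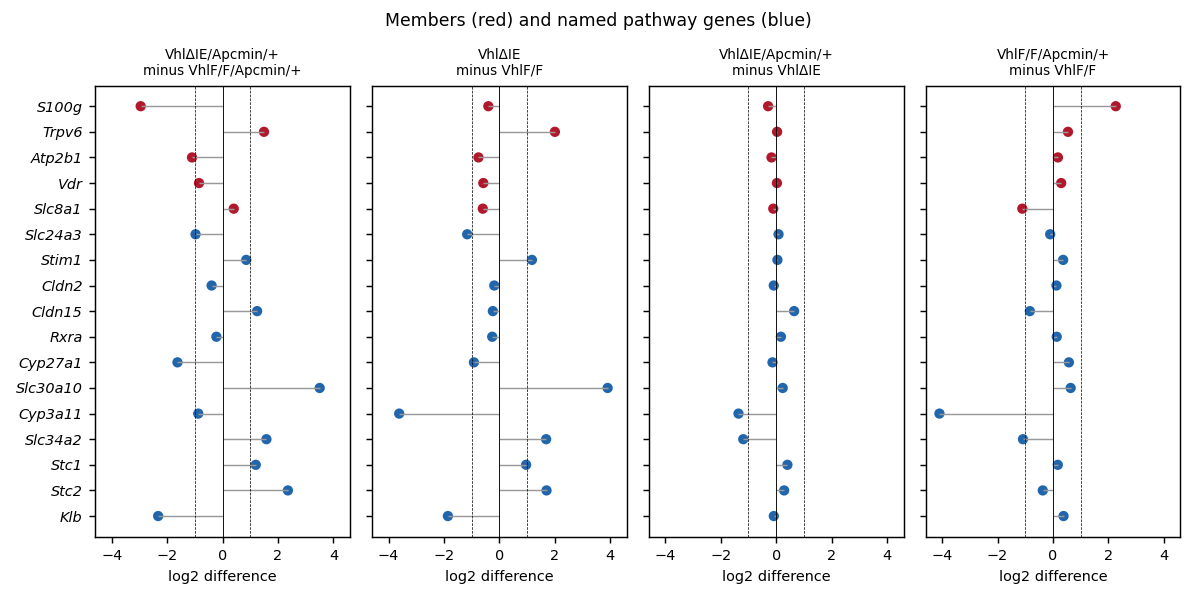
Log2 differences (horizontal axes) of the 5 members above the floor (red) and of the named pathway genes above the floor (blue) in 4 genotype comparisons, 1 panel each, with 2-fold dashed. Slc30a10, Stc2, Slc34a2 and Trpv6 lie to the right and Klb, Cyp27a1, Atp2b1 and Vdr to the left in both Vhl panels, while the panel for the Apc mutation with deleted Vhl holds no member past 2-fold.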

How the data were processed

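The deposited table holds a log2 value for each probe set in each array. Per the submitters' processing notes the authors used affy and RMA. Neither the versions nor the set of arrays normalized jointly is stated in the sources used here. RMA compresses the signal of dim probe sets, and equal distributions hide any shift of the whole transcriptome. Sorted by value, the 4 arrays lay within 0.14 of each other at every place. No depth applies, and 1 array per genotype limits the precision.

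Groups came from the genotype labels. Gene names came from GEO's platform annotation, which can be old, with 1 symbol for 34958 probe sets, several for 932 and none listed for 9211. The 6 members matched the RefSeq table. Members, gene lists and marker lists were chosen with earlier results of these data known. Named were all members, every pathway gene at least 2-fold apart in a single-factor comparison, 9 genes picked whatever their values, and the 3 genes nearest to each member with a range of at least 1. The search for nearest genes passed over clone, predicted-gene and accession-like symbols. Other genes of a list are given as examples, chosen after their values were seen. Beside the single-array differences, a limma model with additive terms for the status of Vhl and of Apc, with empirical Bayes and Benjamini-Hochberg adjustment over 11871 genes, was added after the single differences were seen. The counting and the fit were tested on simulated data. Alternatives were the mean over probe sets, leaving out _s_at and _x_at probe sets, cyclic loess, no floor, a floor of 7, values under 6 raised to 6, and 1.5-fold. Another control array was added after seeing the data. Software was R 4.3.3 with limma 3.58.1, and Python 3.11.15 with pandas 2.3.3, numpy 2.4.6 and matplotlib 3.10.9.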

Additional observations from a re-analysis of the deposited data

Results flagged for a closer look

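Some genes had differences of opposite sign under the same contrast in the arrays compared. None of these differences was tested, since each rests on 1 array per genotype. Any change of sign was flagged, whatever its size, so several pairs lie close to 0. The share of all genes with such a change was not counted. The Apc difference of S100g was lower with deleted Vhl, at -0.29, than with floxed Vhl, at 2.27, a gap of -2.56. For Atp2b1 the Apc differences were -0.17 and 0.18, with a gap of -0.35. The Vhl difference of Slc8a1 was 0.40 with the Apc mutation and -0.60 without it, a gap of 1.00.

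Among pathway genes, Cldn15 had Vhl differences of 1.25 with and -0.24 without the Apc mutation, and Apc differences of 0.65 with deleted and -0.83 with floxed Vhl, a gap of 1.48 either way. The Apc differences with deleted and floxed Vhl were -0.13 and 0.58 for Cyp27a1, with a gap of -0.71, and 0.29 and -0.37 for Stc2, with a gap of 0.66. They were -0.09 and 0.38 for Klb, with a gap of -0.47, and -0.09 and 0.12 for Cldn2, with a gap of -0.21. For Slc24a3 they were 0.08 and -0.10, with a gap of 0.19.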

How the results depend on the processing

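Trpv6, Vdr and Atp2b1 kept their direction in both Vhl comparisons under every alternative run, and so did S100g. Most alternatives could not change these differences. The floor settings, the 1.5-fold rule and leaving out _s_at and _x_at probe sets left all of them as they were. Trpv6 and S100g have 1 probe set each, so only cyclic loess and the other control array could move theirs. With the other floxed array as the control, S100g differed by -0.69 in the VhlΔIE/Apcmin/+ array and -2.67 in the VhlΔIE array, Slc8a1 by -0.70 and 0.51, and Atp2b1 by -0.93 in the VhlΔIE/Apcmin/+ array. Members at least 2-fold lower were then 0 and 1. For the Apc mutation with floxed Vhl, Slc8a1 differed by -0.88 with values under 6 raised to 6, and 0 members were lower under that setting, with the mean over probe sets and with a floor of 7, which leaves Slc8a1 out. The gap between its Vhl differences was 0.99 with cyclic loess and 0.78 with values under 6 raised to 6.

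At 1.5-fold, 2 members were lower in VhlΔIE than in VhlF/F and 3 for both mutations against neither. All genes higher and lower were then 854 and 611 for Vhl deletion with the Apc mutation, 738 and 603 without it, 86 and 94 for the Apc mutation with deleted Vhl, 125 and 280 with floxed Vhl, and 754 and 699 for both against neither. Pathway list genes higher and lower were 9 and 6 for Vhl deletion with the Apc mutation and 8 and 6 without it, and 1 was higher for the Apc mutation with either Vhl status. With the mean over probe sets, 1 pathway gene was lower for Vhl deletion with the Apc mutation and 2 were higher for both against neither. With values under 6 raised to 6, 1 was lower for the Apc mutation with deleted Vhl. With 1 array per genotype there were no replicates to pair, but the additive limma fit takes Apc status as a block for Vhl. Its Trpv6 call was lost with no floor, at 1.75 and an adjusted p of 0.0686. Atp2b1 passed with the mean over probe sets at -0.89, with cyclic loess at -0.91, and without _s_at and _x_at probe sets and with a floor of 7 at -0.93. Vdr passed with the mean over probe sets at -0.72, with cyclic loess at -0.70 and with a floor of 7 at -0.72. The fit's Apc difference of Atp2b1, 0.0044 in the fit, was -0.0077 with the mean over probe sets. Genes higher and lower for Vhl, 432 and 270, were 668 and 516 with the mean over probe sets, 802 and 466 with cyclic loess, and 5 and 1 with no floor, and 409 were lower with a floor of 7. Signal near background limits Casr and Slc8a1.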
